A study of Mus musculus with 8 samples.

Results

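Satellite repeats are tandem DNA sequences that lie mostly at and beside centromeres, where they are packed as constitutive heterochromatin. In the mouse, the major satellite (GSAT_MM in the repeat annotation) makes up the pericentromeric blocks, and the minor satellite (SATMIN) carries the centromere itself. Genome assemblies leave out most of these long arrays, so reads from them fall on the few assembled copies. cGAS is a sensor of cytosolic DNA, and nuclear cGAS has been found on centromeric satellite DNA. The rows of the deposited count table whose repeat class is Satellite were taken here: 33874 copies of 4650627 repeats and 4835895 regions in all. They carry 12 repeat names and are described by name and by chromosome.

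The assay was ATAC-seq, in which a transposase cuts accessible DNA, on primary lung fibroblasts of the mouse. Of the 8 libraries, 4 are from mice lacking cGAS (KO) and 4 from wild types (WT), and each genotype has 2 female and 2 male labels. Neither the knockout allele, the age nor the strain was given in the sources used here. Per the labels, every culture was held at 5% O2 and 5% CO2. Libraries are named by genotype, sex label and number (KO F1, WT M2). Levels are given as CPM, counts scaled to a common library total after adjustment by edgeR's TMM factors. Whether the cells carry fibroblast markers, and the Cgas locus, were not analysed here.

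Library totals ranged from 43.2 to 72.9 M counts, of which satellites took 236663 to 504218 counts. A read end inside both a satellite copy and an open chromatin region (OCR, a peak of the table) was split equally between them. Of GSAT_MM counts, 98.7% lay in copies that overlap an OCR. For SATMIN this share was 99.9%, for ZP3AR 36.7%, for IMPB_01 35.8% and for CYRA11_Mm 30.3%, while no MurSAT1 or SQR1_MM copy overlapped an OCR. Over all satellites, 1414 copies (4.17%) overlapped an OCR, close to the 4.24% of all repeats. How reads that match several copies equally were placed is not given in the sources used here, so the level of a single copy is uncertain and sums by name are the firmer measure.

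The library labelled KO F2 went against its sex label at the Y satellites. CYRA11_Mm, whose family in the annotation is Y-chromosome, has copies on all 21 chromosomes, and Y holds 8.27% of its counts. On Y before 90 Mb it has 702 copies. These copies held 669.5 counts in the library labelled KO F2, 0 in KO F1, 0 in WT F1 and 1 in WT F2. The 4 male-labelled libraries held 817 (KO M1), 967 (KO M2), 546 (WT M1) and 1016 (WT M2). The library labelled KO F2 therefore had 11.1 CPM, inside the male-labelled range of 8.75 to 21.7 CPM. A count of 0 allows up to 0.0476 CPM in KO F1 and 0.0514 CPM in WT F1 (3 counts, counting error only). The genotype fits, which have the sex label as covariate, keep this library under its label. Without it, edgeR called 0 satellite names, 0 chromosomes and 0 copies between genotypes. The contrast between sex labels, its interaction with genotype and the values within the female labels are given both with it and without it.

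A few names held nearly all satellite counts. GSAT_MM took 70.6% of them with 76 copies, 0.224% of the satellite copies. IMPB_01, the most numerous name with 18250 copies, took 16.7%, followed by ZP3AR (2445 copies, 4.98%), SATMIN (9 copies, 3.38%) and CYRA11_Mm (4088 copies, 1.67%). SQR2_MM (1937 copies) took 1.26% of the counts, SQR4_MM (2727 copies) 0.488%, MMSAT4 (574 copies) 0.375%, SYNREP_MM (22 copies) 0.229% and MurSAT1 (3714 copies) 0.224%. SQR1_MM (28 copies) and CENSAT_MC (4 copies, family centr) held a mean of 40.4 and 20.9 counts per library, under the minimum of 100 for a test.

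Per assembled length, the minor satellite stood highest. Reads from arrays left out of the assembly fall on the assembled copies. These values therefore do not compare how accessible the names were. SATMIN had 103 CPM per kb, GSAT_MM 14.4, CENSAT_MC 1.59, ZP3AR 0.678 and IMPB_01 0.381 CPM per kb, against 0.239 for all other repeats of the table together. CYRA11_Mm (0.167), SYNREP_MM (0.146), SQR4_MM (0.114) and MurSAT1 (0.0329 CPM per kb) lay below that value. For CYRA11_Mm and SYNREP_MM this order depends on Y copies, averaged over libraries with and without Y signal. Y held 275 of 599 kb of CYRA11_Mm (0.0312 CPM per kb) and 90.5 of 94.4 kb of SYNREP_MM (0.0484). Elsewhere values lay on both sides: CYRA11_Mm had 0.429 on chromosome 8 and 0.145 on X, SYNREP_MM 7.61 on X and 0.0334 on chromosome 3. Of all satellite copies, 1910 (5.64%) had no count in any library, against 10.9% of all repeats. MurSAT1 had 1016 such copies of its 3714, and SATMIN had none.

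**Figure D1:**
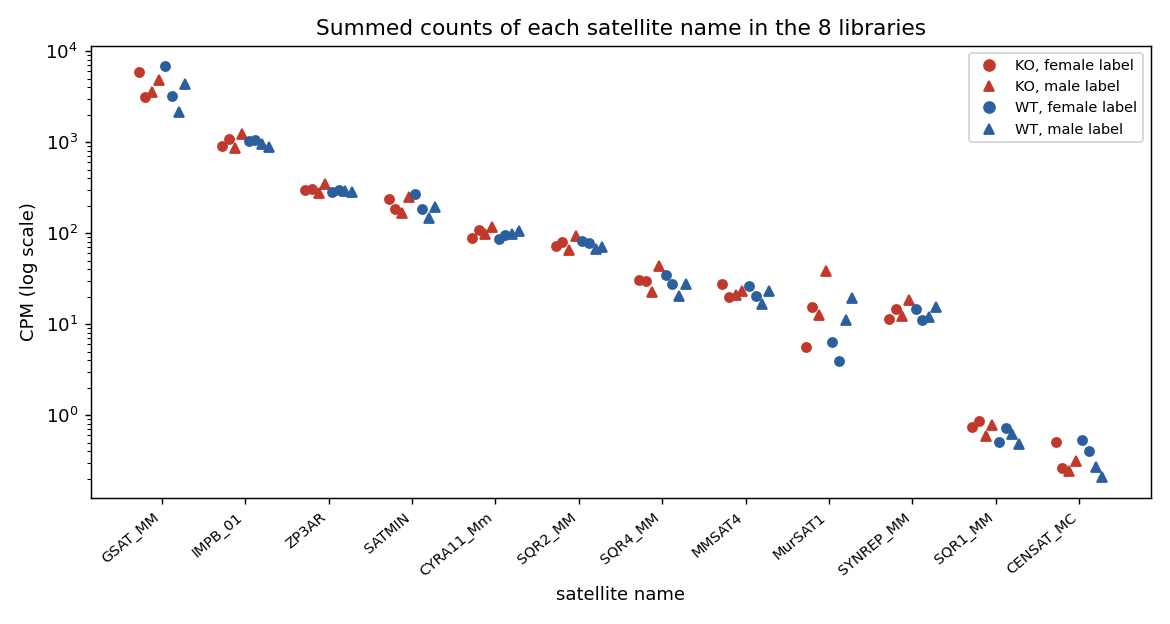
Summed counts of the 12 satellite names (x axis) in CPM on a log scale (y axis); each point is 1 library, red for KO and blue for WT, circles for female and triangles for male labels. GSAT_MM lies between 2165 and 6790 CPM, ZP3AR between 275 and 350, and KO and WT points intermingle for each name.

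The satellite share of all table counts sums every satellite copy of a library, and GSAT_MM made up 70.6% of satellite counts. It is not a measure of the accessibility of heterochromatin as a whole. The share was 0.768% in KO F1, 0.507% in the library labelled KO F2, 0.490% in KO M1 and 0.720% in KO M2. In WT it was 0.932% in F1, 0.511% in F2, 0.356% in M1 and 0.567% in M2. The highest and the lowest library were both WT, 2.62-fold apart, and the KO libraries lay between them. The mean was 0.621% ± 0.143 in KO and 0.592% ± 0.244 in WT (n = 4 each, SD), a difference of 0.0297 percentage points (95% interval -0.442 to 0.412, exact two-sided permutation p = 0.971). The smallest p this test can give is 0.0286. The difference was smaller than the spread between libraries, and its sign turned without KO F1 (-0.0193), KO M2 (-0.00325) or WT M1 (-0.0488).

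No satellite name passed an adjusted p of 0.05 between genotypes. In edgeR's quasi-likelihood test on counts summed by name, 0 of 10 satellite names and 0 of 1184 repeat names of the table (0%) were called. At an unadjusted p under 0.05 there were 0 of the 10 satellite names and 19 of all 1184 names. DESeq2 and limma voom called 0 names as well. No satellite name had KO and WT libraries that did not overlap, while 17 of 1184 names (1.44%) did. Values lay above 0 on the log2 scale for all 10 satellite names in this fit and for 71.2% of all names, but for 9 of 10 in DESeq2, 6 in limma voom, 5 within the female labels, 7 without the library labelled KO F2 and 4 without KO M2. DESeq2 took its own size factors from the summed names, and its median log2 over all names was 0.00185, against 0.0532 in edgeR. Within the female labels but without the library labelled KO F2, which leaves 1 KO library whose spread is taken from the other groups, 4 of 10 lay above 0 and 0 were called.

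The major satellite varied more between libraries than between genotypes. GSAT_MM had 5977 CPM in KO F1, 3099 in the library labelled KO F2, 3530 in KO M1 and 4812 in KO M2. In WT it had 6790 CPM in F1, 3257 in F2, 2165 in M1 and 4329 in M2. The libraries numbered F1 were the highest of each genotype, and the groups overlapped over most of their range. The mean was 4355 ± 1304 CPM for KO and 4136 ± 1978 for WT (n = 4 each, SD), and the fold fitted by edgeR was 1.08 (95% interval 0.602 to 1.93, edgeR adjusted p = 0.965). A rise of 2-fold lies just outside this interval, and a fall of 2-fold lies further outside it.

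The minor satellite followed nearly the same order of libraries with a narrower range. SATMIN had 236 CPM in KO F1, 185 in the library labelled KO F2, 168 in KO M1 and 250 in KO M2, and 268, 184, 146 and 193 CPM in WT F1, F2, M1 and M2. Its highest library was 1.83-fold above its lowest, against 3.14-fold for GSAT_MM, and the lowest library was WT M1 for both. KO had 210 ± 39.3 and WT 198 ± 50.7 CPM (n = 4 each, SD), and the fold fitted by edgeR was 1.07 (95% interval 0.773 to 1.49, edgeR adjusted p = 0.914). Per 100 counts of the major satellite, the minor satellite had 4.97 ± 0.845 counts for KO and 5.20 ± 1.26 for WT (exact permutation p = 0.771). This ratio ran from 3.94 in WT F1 to 6.75 in WT M1, the libraries with the most and the least major satellite.

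In total, 4 blocks carried 92.9% of the major satellite counts. The copy at 9:3000003-3038414 (GRCm39), 38412 bp at the centromeric end of chromosome 9, held 42.5% to 44.0% of them in every library. A block of 47026 bp on an unplaced contig held 32.3% to 36.4%, the copy at 2:98496890-98497677 held 9.69% to 12.3% and the copy at 14:3050003-3054022 held 3.67% to 3.92%. These shares moved little between libraries. How reads that match several copies were placed is not given, so near-constant shares cannot show whether each block itself differed. The counts of single copies in the next paragraph have the same limit. The chromosome 9 block had 2541 CPM in KO F1, 1365 in the library labelled KO F2, 1501 in KO M1 and 2118 in KO M2. In WT it had 2937 CPM in F1, 1431 in F2, 948 in M1 and 1871 in M2. Its fold between genotypes was 1.07 (edgeR adjusted p = 1.00).

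Of the 65 GSAT_MM copies with enough counts to be tested singly, 60 had WT F1 or KO F1 as their highest library and 45 had WT M1 as their lowest. In 5 copies another library was the highest (KO M2 in 2 of them), and in 20 copies another library than WT M1 was the lowest. Of the 5, the copy with the highest level is a fragment of 695 bp on the same contig as the 47026-bp block, at positions 60179-60873, and it was picked out after its values were seen. It had 24.0, 24.0, 28.1 and 25.1 CPM in KO F1, the library labelled KO F2, KO M1 and M2, against 23.7, 28.2, 29.5 and 22.0 CPM in WT F1, F2, M1 and M2. Its highest library was 1.34-fold above its lowest, where the 7 highest GSAT_MM copies spanned 2.47- to 3.74-fold. WT M1, the lowest library of the large blocks, was its highest.

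The minor satellite was counted at 6 places above 1 CPM. On chromosome 2, 3 copies took 76.0% of its counts and lie within 5 kb of the major satellite copy there. The largest of them, at 2:98492580-98493171, had 106, 74.0, 72.1 and 102 CPM in KO F1, the library labelled KO F2, KO M1 and M2, against 117, 73.4, 55.5 and 83.6 CPM in WT F1, F2, M1 and M2. As for GSAT_MM, both F1 libraries were at the top and WT M1 at the bottom. The copy at 6:103626009-103626275 had 35.4 ± 6.58 CPM for KO and 33.8 ± 7.06 for WT (n = 4 each, SD). These and the one at 2:98496550-98496870 make up, with 7 GSAT_MM copies, the 10 highest of all satellites, which held 70.6% of all satellite counts. Their log2 differences ran from 0.08 to 0.13, and each had an edgeR adjusted p of 1.00.

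The interspersed names were more even. IMPB_01 had 901, 1097, 866 and 1242 CPM in KO F1, the library labelled KO F2, KO M1 and M2, against 1042, 1056, 965 and 888 CPM in WT F1, F2, M1 and M2. KO M2 was its highest library and KO M1 its lowest, so the KO range held the whole WT range. Its fold was 1.04 (95% interval 0.832 to 1.30, edgeR adjusted p = 0.931). ZP3AR had 307 ± 31.6 CPM for KO and 289 ± 5.89 for WT (n = 4 each, SD), and the fitted fold was 1.06 (95% interval 0.924 to 1.22, edgeR adjusted p = 0.911). Its copies gather on chromosome 5, where 348 of 2445 lie between 135 and 140 Mb, and on chromosome 7, with 186 between 15 and 20 Mb. Chromosomes 5 and 7 held 41.0% and 30.1% of its counts.

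For 5 of the remaining tested names the fitted folds lay between 1.05 and 1.15, with intervals that include 1. They were 1.07 for CYRA11_Mm (95% interval 0.920 to 1.25), 1.05 for SQR2_MM (0.859 to 1.29), 1.15 for SQR4_MM (0.785 to 1.69), 1.06 for MMSAT4 (0.826 to 1.37) and 1.07 for SYNREP_MM (0.798 to 1.44). MurSAT1 had the largest value, with a fitted fold of 1.85 (95% interval 0.875 to 3.91, edgeR adjusted p = 0.911). On the log2 scale its difference was 0.89 with all libraries, 0.47 without the library labelled KO F2 and 0.53 without KO M2. Its copies lie on the sex chromosomes, with 3199 on Y and 452 on X, and its level moved with the Y satellites of each library as described further on. Genotype effects were compared between the sex labels by edgeR's interaction term: 0 of 10 satellite names and 0 of 1184 names (0%) were called, with 0 and 2 at an unadjusted p under 0.05, and the same counts were found without the library labelled KO F2. Without KO M1, 3 of 10 satellite names and 306 of 1184 names had an unadjusted p under 0.05 for this term, and 0 were called (lowest edgeR adjusted p = 0.150).

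**Figure D2:**
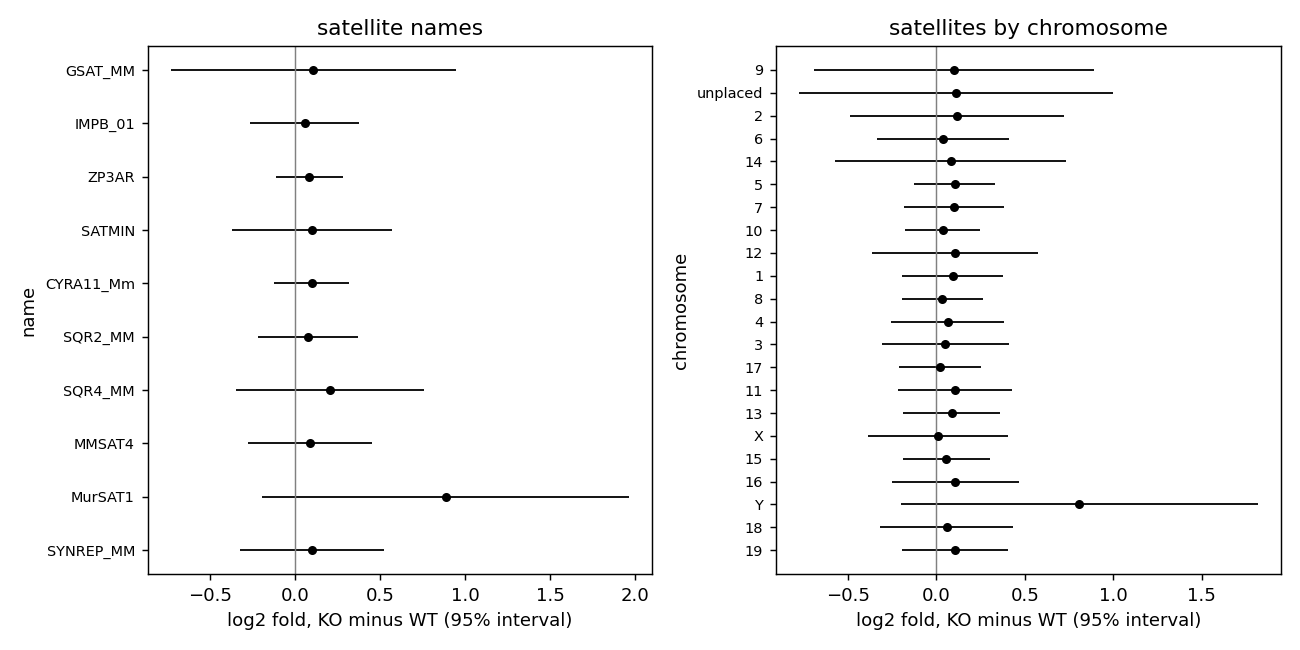
Log2 fold between KO and WT (x axis) with its 95% interval from edgeR, for the 10 tested satellite names (left) and for satellites summed over 21 chromosomes and the unplaced contigs (right), in order of their mean level. Each interval includes 0, and the widest are those of MurSAT1, the Y chromosome, GSAT_MM and the unplaced contigs.

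By chromosome, satellite counts followed the major satellite blocks. Chromosome 9 held 32.7% of all satellite counts, the unplaced contigs 26.9% and chromosome 2 11.9%, and GSAT_MM gave 96.8%, 99.9% and 69.6% of the counts there. Chromosome 6 came next with 5.72%, of which IMPB_01 gave 86.1%. Between genotypes, edgeR called 0 of 22 satellite sums and 0 of 292 sums over repeat class and chromosome (0%), with 0 and 0 at an unadjusted p under 0.05, and DESeq2 and limma voom also called 0. No satellite sum had groups that did not overlap, against 2 of 292 (0.685%).

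Fold differences were 1.07 (95% interval 0.619 to 1.85) on chromosome 9, 1.08 (0.585 to 1.99) on the unplaced contigs and 1.08 (0.714 to 1.65) on chromosome 2. Chromosomes Y and 5 had the lowest p, with folds of 1.75 (0.871 to 3.52, edgeR adjusted p = 0.983) and 1.08 (0.917 to 1.26, adjusted p = 0.983). KO has 3 libraries with Y signal at CYRA11_Mm and WT has 2, and without the library labelled KO F2 the log2 difference on Y went from 0.81 to 0.26. Chromosome X had a fold of 1.01 (0.767 to 1.32). All 22 sums lay above 0 on the log2 scale in this fit, as did 79.1% of all 292, but 15 of 22 did in DESeq2, 7 in limma voom, 17 without the library labelled KO F2 and 1 without KO M2. With its own size factors, DESeq2 had a median log2 over all 292 sums of 0.00397, against 0.0552 in edgeR.

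On chromosome 6, 61 long IMPB_01 copies form a tandem array at 6:114466353-114614609. IMPB_01 copies have a median length of 111 bp, while these units are 2116 to 2220 bp long, and 1 other copy of at least 2000 bp was found elsewhere. The units start a median of 2436.5 bp apart (2177 to 2587), over 148 kb. They are 0.334% of the IMPB_01 copies and 4.94% of their length, and they held 24.5% of the counts of that name. The array had 1.88 CPM per kb, and all other IMPB_01 copies 0.303 CPM per kb. The length limit and the array were chosen after the counts were seen, so no test is given for its sum.

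Most units carried an open region near the same place. An OCR overlapped 51 of the 61 units and none overlapped the other 10. Of the 51, 1 held 2 OCRs, and the centre lay a median of 1185.5 bp from the unit start. In 44 of the 51 units the centre was within 50 bp of that median. How reads that match several units equally were placed is not given. Counts of units, here and below, are therefore not counts of independent observations. The OCRs had a median length of 529 bp. Mean levels per unit ran from 1.32 CPM in unit 1 to 6.11 CPM in unit 37, with a median of 4.06. The units at both ends were low, with 2.20 CPM in unit 2 and 2.81 CPM in unit 61.

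**Figure D3:**
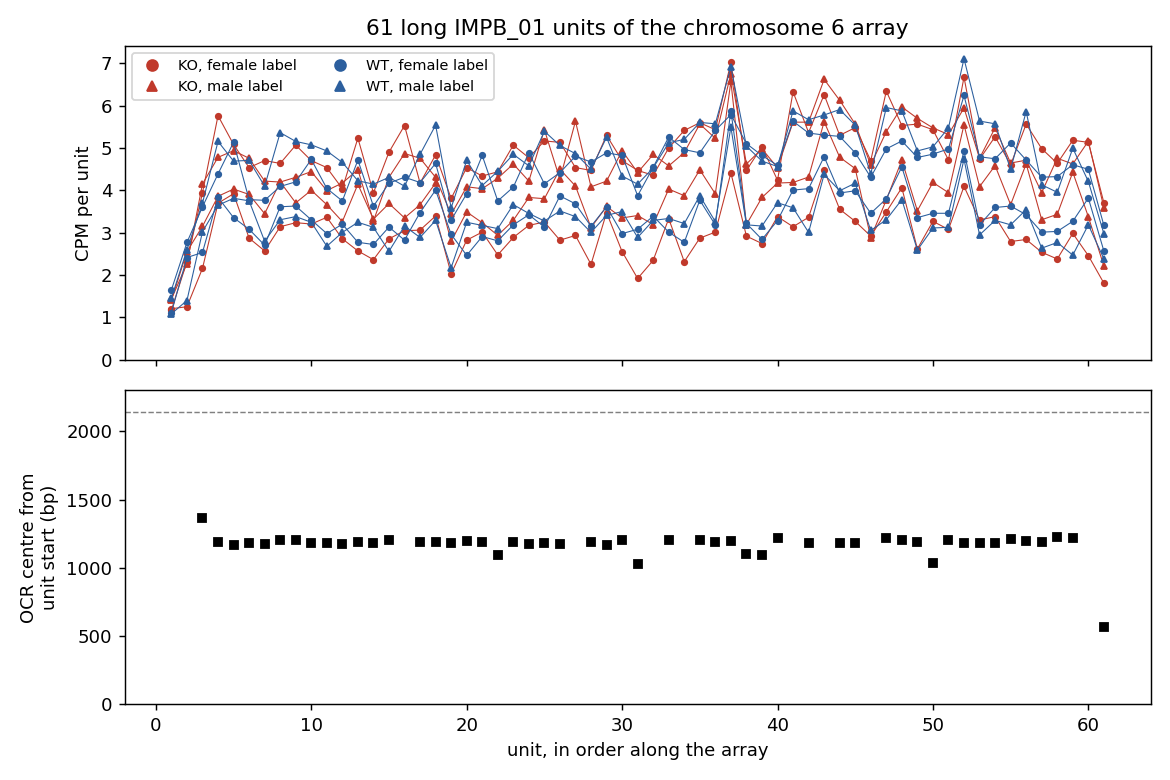
Upper panel: CPM of each of the 61 long IMPB_01 units (y axis) in their order along the chromosome 6 array (x axis), 1 line per library, red for KO and blue for WT, circles for female and triangles for male labels. Lower panel: distance in bp from the unit start to the centre of the first overlapping OCR, with the median unit length as a dashed line; most centres lie near 1185.5 bp, and the lines of the 8 libraries keep apart as 4 higher and 4 lower ones over much of the array.

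Libraries took another order at the array than at the major satellite. The 61 units summed to 180, 298, 232 and 287 CPM in KO F1, the library labelled KO F2, KO M1 and M2, against 205, 276, 295 and 197 CPM in WT F1, F2, M1 and M2. KO F1 and WT F1, the highest libraries for GSAT_MM, were the lowest and the third lowest here, and WT M1, the lowest for GSAT_MM, was the second highest. KO had 249 ± 54.6 CPM and WT 243 ± 49.6 CPM (n = 4 each, SD). KO F1 was the lowest library in 37 units, WT M2 in 16 and WT F1 in 7. None of WT M2, WT F1, KO M1 and KO F1 was the highest in any unit.

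The higher and lower libraries at the array fell on opposite sides of the main axis of variation of the OCRs, but the order within a side differed. The leading component over all OCRs, with 43.3% of their variance, placed WT M2, WT F1, KO M1 and KO F1 on its negative side and the other 4 libraries on its positive side. The array summed to 179.7 to 232.1 CPM in the former and 275.5 to 298.1 CPM in the latter, with no overlap. The share of other features that separate in this way was not computed, and the array was chosen after its counts were seen. The match is therefore not shown to be particular to the array. The part of this component in the array's values was not tested. In the test of single rows all 61 units were tested, 41 lay above 0 on the log2 scale, 0 had an unadjusted p under 0.05, and the lowest edgeR p was 0.392 (adjusted p = 1.00).

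The Y satellites lay in 4874 copies and differed most between libraries. MurSAT1 on Y before 90 Mb (3165 copies) had 11.1 CPM in KO M1, 33.1 in KO M2, 9.66 in WT M1 and 16.5 in WT M2. The library labelled KO F2 had 12.6 CPM, and the other female-labelled libraries had 0.699 (KO F1), 0.651 (WT F1) and 0.327 CPM (WT F2). The library labelled KO F2 was thus within the range of the male-labelled ones, and KO M2 was the highest of all. The largest SYNREP_MM copy, 89826 bp at Y:4072140-4161965, had 6.02, 8.08, 4.33 and 6.86 CPM in KO M1, KO M2, WT M1 and WT M2 and 4.08 CPM in the library labelled KO F2. It kept 1.81, 2.40 and 1.25 CPM in KO F1, WT F1 and WT F2, so part of its counts were present without the Y signal of CYRA11_Mm.

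Names differed at the end of the Y chromosome. The 11 IMPB_01 copies from 90 Mb onward had 3.32 to 7.61 CPM in the male-labelled libraries, 5.50 CPM in the library labelled KO F2 and 6.58 to 8.35 CPM in the other 3 female-labelled ones. Their counts were thus present in every library, and no lower where CYRA11_Mm on Y had at most 1 count. The 2 SQR2_MM copies there also had counts in every library (9 to 30.5). The 34 MurSAT1 copies there kept the Y pattern, with 4, 0 and 0 counts in KO F1, WT F1 and WT F2. They had 12 in the library labelled KO F2 and 10, 15, 9 and 13 in KO M1, KO M2, WT M1 and WT M2. On X, MurSAT1 gathers between 120 and 125 Mb, with 390 of its 452 copies. Its X copies had 4.83, 2.55, 5.65 and 3.63 CPM in KO F1, the library labelled KO F2, WT F1 and WT F2, and 1.24, 4.47, 1.17 and 2.10 CPM in KO M1, KO M2, WT M1 and WT M2. KO M2 alone of the male-labelled libraries lay in the female-labelled range. KO M2 was also the highest library for IMPB_01, ZP3AR, SQR2_MM and SQR4_MM, though not for GSAT_MM, SATMIN or MMSAT4. It had the largest share of counts in other repeats outside OCRs (28.4%). The part of this in its X and Y values was not tested.

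**Figure D4:**
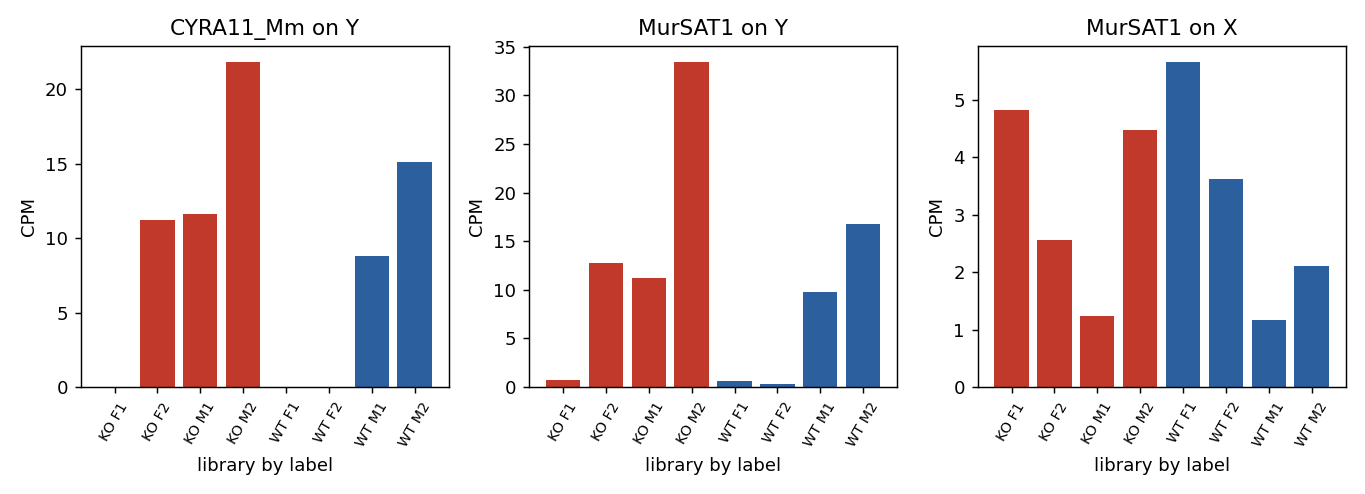
CPM (y axes, from 0) of CYRA11_Mm on Y, MurSAT1 on Y and MurSAT1 on X in each library (x axes), red for KO and blue for WT. For both Y panels the library labelled KO F2 stands with the 4 male-labelled libraries and KO M2 is the highest, while KO F1, WT F1 and WT F2 are at or near 0.

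Satellites on Y summed to 11.4, 11.4 and 11.5 CPM in KO F1, WT F1 and WT F2, to 38.7 in the library labelled KO F2, and to 37.9, 84.1, 34.8 and 51.6 CPM in KO M1, KO M2, WT M1 and WT M2. The library labelled KO F2 exceeded KO M1 and WT M1. Male against female labels, the log2 difference was 1.60 ± 0.43 (SE, edgeR adjusted p = 0.400) with all 8 libraries and 2.08 ± 0.32 (SE, edgeR adjusted p = 0.0193) without that library. Since that library was set aside for its Y satellite counts, the latter value depends on that choice and is given as a description. Over all satellite chromosomes, 0 of 22 were called with all libraries (0 of 292 features, 0%; 2 and 20 at an unadjusted p under 0.05). Without the library labelled KO F2, Y alone was called, beside 9 of 292 features (3.08%).

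Satellites on X had 52.0, 46.9, 59.5 and 54.2 CPM in KO F1, the library labelled KO F2, WT F1 and WT F2, and 32.9, 52.7, 36.2 and 37.1 CPM in KO M1, KO M2, WT M1 and WT M2. KO M2 again lay among the female-labelled libraries. The log2 difference of male minus female labels was -0.42 ± 0.17 (SE, edgeR adjusted p = 0.658), and -0.52 ± 0.18 (SE, edgeR adjusted p = 0.379) without the library labelled KO F2. DESeq2, with its own size factors, called X (adjusted p = 0.0180) and Y (adjusted p = 0.00322), 2 of 22 beside 15 of 292 features (5.14%). Without the library labelled KO F2 it called the same 2 chromosomes, beside 20 of 292 features (6.85%). Without KO M2, edgeR called X (log2 -0.62, adjusted p = 0.0201) and 7 autosomes, all lower in male labels, beside 67 of 292 features (22.9%).

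Few single copies had the depth for a test. filterByExpr kept 1487 of the 33874 copies (4.39%), with a median of 16 counts per library: 745 of IMPB_01, 489 of ZP3AR, 82 of CYRA11_Mm, 74 of SQR2_MM, 65 of GSAT_MM, 11 of MMSAT4, 8 of SYNREP_MM, 7 of SATMIN, 5 of SQR4_MM and 1 of SQR1_MM. No MurSAT1 or CENSAT_MC copy was kept. In edgeR, 0 of these copies and 0 of the 573270 rows tested (0%) were called. At an unadjusted p under 0.05 there were 31 copies (2.08%), against 5.36% of all rows, and 34 copies had groups that did not overlap (2.29%), against 3.38% of all rows. DESeq2 called 0 satellite copies beside 0.391% of all rows (2242 rows). It gave no adjusted p for 266746 of the 573270 rows, some satellite copies among them, so these could not be called.

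The copies with the lowest p were short IMPB_01 and ZP3AR copies at low levels. IMPB_01 at 5:92989836-92990123 had 0.318, 0.447, 0.639 and 0.382 CPM in KO F1, the library labelled KO F2, KO M1 and M2, against 0.0685, 0.218, 0.112 and 0.194 CPM in WT F1, F2, M1 and M2. All KO libraries lay above all WT libraries, with a fold of 2.96 (edgeR adjusted p = 0.431). ZP3AR at 7:4507960-4508121 (fold 2.93) and ZP3AR at 5:136245461-136245796 (fold 2.41) also had no overlap between the groups. IMPB_01 at 13:63400158-63400258 (fold 2.08) and ZP3AR at 10:81270323-81270439 (fold 2.72) overlapped. The adjusted p of these 4 ran from 0.491 to 0.586.

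Of copies with lower values in KO, ZP3AR at 5:137087839-137088113 had the lowest p. It had 1.38, 1.92, 2.50 and 1.48 CPM in KO F1, the library labelled KO F2, KO M1 and M2, against 2.36, 3.04, 3.32 and 3.16 CPM in WT F1, F2, M1 and M2, a fold of 0.615 (edgeR adjusted p = 0.701). Only KO M1 and WT F1 overlapped. IMPB_01 at Y:90831142-90832255 had 0.150 ± 0.0410 CPM for KO and 0.297 ± 0.0433 for WT (n = 4 each, SD) with no overlap (edgeR adjusted p = 0.711). The folds were 0.404 for IMPB_01 at 8:24926153-24926524, 0.515 for IMPB_01 at 1:90139250-90139495 and 0.494 for ZP3AR at 17:57574991-57575192. WT M1 with 2.71 CPM set the first of these 3, since the other WT libraries had 0.462 to 0.919 CPM.

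The share of satellite counts in copies that overlap an OCR varied more among libraries of 1 genotype than between the genotype means. It was 86.2%, 76.8%, 82.7% and 79.4% in KO F1, the library labelled KO F2, KO M1 and M2, against 85.9%, 78.5%, 75.8% and 83.5% in WT F1, F2, M1 and M2. KO had 81.3% ± 4.06 and WT 80.9% ± 4.62 (n = 4 each, SD), a difference of 0.367 percentage points (95% interval -9.11 to 10.4, exact permutation p = 0.83). The libraries with the highest shares, KO F1 and WT F1, were those with the most GSAT_MM.

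Satellite levels moved with the share of counts in other repeats outside OCRs, a measure of how much of a library lies outside open regions. That share was 23.0%, 23.3%, 16.9% and 28.4% in KO F1, the library labelled KO F2, KO M1 and M2, against 27.7%, 22.1%, 16.6% and 18.3% in WT F1, F2, M1 and M2. Across the 8 libraries its Pearson's r with the satellite share was 0.794 (exact permutation p = 0.0208) and Spearman's rho 0.738 (exact permutation p = 0.0458). Over the 11 relations computed, the adjusted values were 0.0381 and 0.0720. Both shares have the library total as denominator, which ties them to each other and to the OCR share. Without KO M2 and WT M1, the libraries farthest from the median, r was 0.755 (exact permutation p = 0.108).

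By name, r was 0.963 for SQR4_MM (adjusted exact p = 0.000273), 0.967 for SQR2_MM (0.000682), 0.899 for ZP3AR (0.00427), 0.914 for SATMIN (0.00491) and 0.872 for IMPB_01 (0.0122), and stayed between 0.821 and 0.979 without KO M2 and WT M1. GSAT_MM had an r of 0.713, SYNREP_MM of 0.711 and MMSAT4 of 0.709 (adjusted exact permutation p = 0.0611 for each). CYRA11_Mm (0.487) and MurSAT1 (0.351) had weaker relations that turned negative without those libraries (-0.0469 and -0.508). Differences between these r values were not tested. For GSAT_MM, libraries with nearly the same share could differ: KO F1 and the library labelled KO F2 had 23.0% and 23.3%, and 5977 and 3099 CPM of GSAT_MM. The relation within one genotype was not computed, since 4 libraries are too few.

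**Figure D5:**
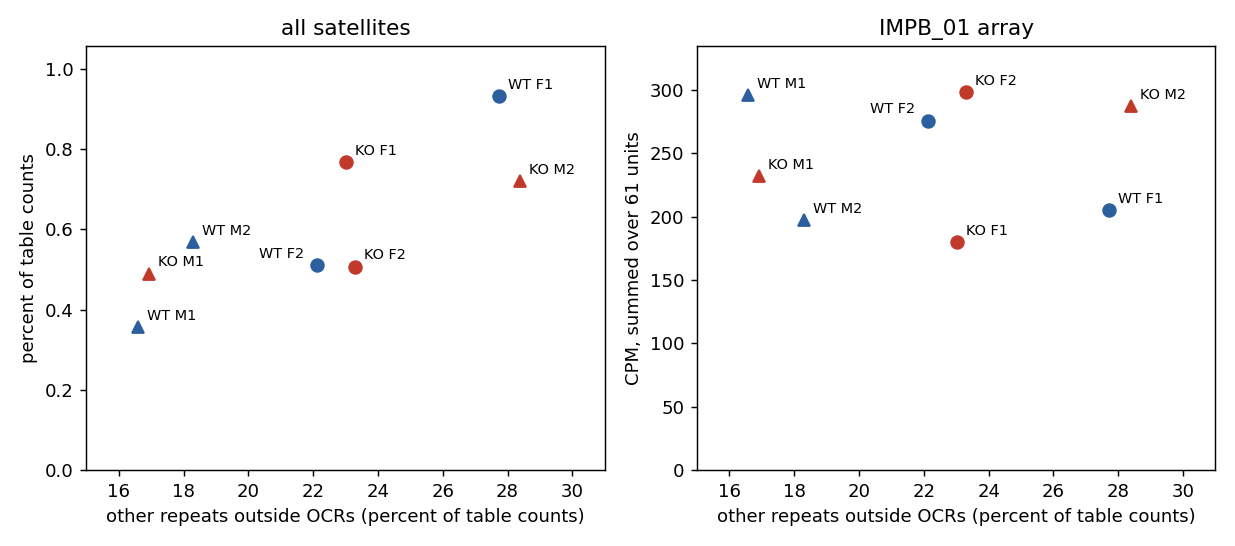
Percent of table counts in other repeats outside OCRs (x axes) against the satellite share of table counts (left) and the summed CPM of the IMPB_01 array (right); each point is 1 library, red for KO and blue for WT, circles for female and triangles for male labels. The satellite share is lowest in WT M1 (0.356%), at the low end of the axis, and highest in WT F1 (0.932%); KO M2, farthest to the right, has 0.720%. The array spans 180 to 298 CPM.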

How the data were processed

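Per the file headers, the values are estimated counts that the authors made with featureCounts 2.0.3 over peaks and repeats. Per the same headers, both mates had to align, only the 5' end of a read was placed, and an end inside more than 1 region was divided equally among them. The submitters' processing notes name the build GRCm39 and also Trim Galore, Bowtie2, SAMtools, Picard, MACS2 and bedtools.

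Estimated counts were rounded and tested with edgeR 4.0.16 (R 4.3.3; quasi-likelihood, robust), with the sex label as covariate, whole-table totals as library sizes and TMM factors from all 573270 rows kept by filterByExpr. Counts were summed by repeat name (1184 names, without simple and low-complexity repeats) and by class and chromosome (292 features) where the mean was at least 100. P-values were adjusted by Benjamini-Hochberg over all features of each fit. Shares were compared by exact two-sided permutation over 70 assignments, with intervals by inversion, and relations over 40320 pairings. Alternatives were limma 3.58.1 voom (sample weights), DESeq2 1.42.0, other factors, filters and covariates, and leaving out each library. DESeq2 estimated its own size factors from the features of each fit, so it differs from edgeR in scaling as well as in method. Scripts were tested on simulated data.

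Named by rule are the 10 copies with the highest mean CPM, the 5 of lowest p on either side of 0, the 3 chromosomes with most counts, X, Y and the 2 of lowest p on either side. Members and lists were chosen with earlier results of these data known. Satellite sequences, heterochromatin regulators and cell type markers were not analysed here, because no genome or gene table in GRCm39 was used.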

Additional observations from a re-analysis of the deposited data

How the results depend on the processing

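No satellite name, chromosome or single copy was called between genotypes under any setting run (names 0, chromosomes 0, copies 0), and the interaction with sex called 0 names. Directions were not stable. The share difference ran from -0.0488 to 0.143 percentage points without 1 library each. The share in copies that overlap an OCR ran from -1.35 to 2.04 points, and was -0.278 with an overlap of at least 50% of the copy and -1.08 without GSAT_MM. Leaving out 1 library each, log2 values by name ran from -0.14 to 0.41 for GSAT_MM, -0.066 to 0.26 for SATMIN, -0.082 to 0.14 for IMPB_01, -0.014 to 0.15 for CYRA11_Mm, -0.039 to 0.18 for MMSAT4, -0.064 to 0.15 for SQR2_MM, -0.069 to 0.33 for SQR4_MM and -0.047 to 0.20 for SYNREP_MM. MurSAT1 ran from 0.47 (without the library labelled KO F2) to 1.16 and ZP3AR at 0.0033 to 0.14. By chromosome the ranges were -0.14 to 0.38 (9), -0.15 to 0.43 (unplaced), -0.074 to 0.33 (2), -0.0091 to 0.17 (5), -0.18 to 0.097 (X) and 0.26 to 1.06 (Y, lowest without the library labelled KO F2).

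For the GSAT_MM copies the ranges were -0.15 to 0.40 at 9:3000003, -0.15 to 0.44 on the contig with the 47026-bp block, -0.089 to 0.38 at 2:98496890, -0.14 to 0.38 at 14:3050003, -0.10 to 0.41 at 9:35216513, -0.097 to 0.39 at 12:3159867 and -0.14 to 0.47 on the second contig. For SATMIN they were -0.056 to 0.31 at 2:98492580, -0.095 to 0.22 at 2:98496550 and -0.10 to 0.21 at 6:103626009. Within the female labels, log2 was -0.15 for GSAT_MM, -0.071 for IMPB_01, -0.10 for SATMIN, -0.056 for SQR2_MM and -0.056 for SQR4_MM. Without the library labelled KO F2 these were 0.22 for GSAT_MM, -0.25 for IMPB_01, 0.031 for SATMIN, -0.16 for SQR2_MM and -0.080 for SQR4_MM, beside -0.069 for CYRA11_Mm, -0.21 for SYNREP_MM and -0.018 for ZP3AR. IMPB_01 was -0.0031 in DESeq2 and -0.074 in limma voom, where SQR2_MM was -0.045, SQR4_MM -0.00013 and SYNREP_MM -0.0065. Chromosome X was -0.051 in DESeq2, -0.14 in limma voom, -0.018 with RLE factors, -0.020 without the sex covariate and -0.010 with the replicate block.

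The replicate numbers paired the libraries in part. Deviations of same-numbered libraries correlated at 0.692 (F1), 0.614 (F2), 0.558 (M1) and -0.275 (M2). Libraries numbered F1, F2 and M1 correlated best with their own number in the other genotype. KO M2 correlated best with WT F1 (0.339), and WT M2 with KO M1 (0.466). The replicate block called 0 names, 0 chromosomes and 0 copies, and gave a share difference of 0.0297 points (exact sign permutation p = 1.00) and an OCR share difference of 0.367 points (p = 0.875). The sex contrast called 0 satellite chromosomes with all libraries, 2 in DESeq2 with or without the library labelled KO F2, and 0 to 8 without 1 library each. The relation to other repeats weakened to an r of 0.755 (exact permutation p = 0.108) without KO M2 and WT M1, and was 0.973 for copies outside OCRs. DESeq2 called 2242 rows of the table where edgeR called 0. A looser filter, with a mean of 5 counts, moved the copies above 0 from 809 to 1884; it tests more copies. DESeq2 and the left-out libraries for the sex contrast and the interaction, the female labels without the library labelled KO F2, the share that adds OCRs lying in satellites (0.0434 points), and the OCR share without GSAT_MM were chosen after seeing the data. Depth limits single copies, of which few were tested, and reads placed among near-identical copies were not resolved. The cause of these changes was not tested.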
